A study of Mus musculus with 2 samples.

Results

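Genes that store, move and recover iron were followed across the cell types of the mouse dorsal meninges after a mild brain injury. The set of 10 was taken by symbol from the gene list of the count matrices, which holds 32285 genes. Ftl1, Fth1 and Ncoa4 belong to iron storage, Tfrc, Trf and Slc11a1 to iron uptake and carriage, Slc40a1 and Cp to iron export, and Hmox1 and Blvrb to the breakdown of heme. All 10 were present, and all were counted in at least 1 cell of each library.

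The study compared 2 groups of male C57BL/6 mice, given as 10 weeks of age in one label and as 10 to 12 weeks in another. TBI mice had received a mild closed-skull traumatic brain injury 1 week earlier, and Sham mice had received a Sham procedure 1 week earlier. The whole dorsal meninges of 5 mice were pooled into 1 single-cell RNA sequencing library per group, so mice cannot be told apart within a library. By the paper's account, the tissue taken left out the spot that was struck, and the mice were perfused before collection. With 1 library per group no difference has a replicate check, no test between the groups was possible, and the 95% intervals given here cover counting error only.

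Iron is held inside the cell by ferritin, a shell built of light and heavy chains, and the heavy chain oxidises the iron as it enters. Tissue macrophages are known for taking up aged red blood cells, opening their heme ring with heme oxygenase, and either storing the freed iron or passing it out through ferroportin. When iron is scarce, iron regulatory proteins bind a short RNA hairpin called the iron-responsive element, which blocks translation when it lies in the 5′ UTR and protects the transcript when it lies in the 3′ UTR.

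That hairpin links the storage, export and uptake genes, so its sequences are shown for the genes that carry it. A search of the annotated UTRs was run on the sense strand for C, 5 bases, the loop CAGTGN, and 5 bases that pair with the first 5, with G-T pairs allowed. A match was held by 4 of the 10 genes: Ftl1, Fth1 and Slc40a1 had 1 each in the 5′ UTR, and Tfrc had 4 in the 3′ UTR. Of all annotated genes with a 5′ UTR 0.148% (31 of 20916) held such a match there, and of those with a 3′ UTR 0.613% (129 of 21039) did. Capitals mark the loop, the letters run 5′ to 3′ on the gene's own strand, and positions are GRCm38 coordinates.
Ftl1 5′ UTR, chr7:45459785-45459801, minus strand: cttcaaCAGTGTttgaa
Fth1 5′ UTR, chr19:9982738-9982754, plus strand: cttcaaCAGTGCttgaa
Slc40a1 5′ UTR, chr1:45925471-45925487, minus strand: cagctaCAGTGTtagct
Tfrc 3′ UTR, chr16:32631225-32631241, plus strand: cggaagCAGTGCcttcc
Tfrc 3′ UTR, chr16:32631604-32631620, plus strand: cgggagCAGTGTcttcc
Tfrc 3′ UTR, chr16:32631669-32631685, plus strand: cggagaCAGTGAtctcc
Tfrc 3′ UTR, chr16:32631716-32631732, plus strand: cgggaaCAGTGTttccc
The 2 ferritin elements carried the same letters in both stems, and the 4 Tfrc elements each had a different stem. This regulation acts on translation or on transcript decay, and the counts measure transcripts only.

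The genes lie on 8 chromosomes of GRCm38. The light chain gene Ftl1 spans chr7:45457944-45459884 and the heavy chain gene Fth1 chr19:9980598-9985098. Ncoa4, the receptor that carries ferritin to the lysosome, spans chr14:32159865-32179855. The transferrin receptor gene Tfrc spans chr16:32608920-32632794, the gene of its ligand transferrin, Trf, chr9:103204001-103230444, and Slc11a1, a metal transporter of the phagosome membrane, chr1:74375195-74386062. The ferroportin gene Slc40a1 spans chr1:45908068-45926523, and Cp, which encodes the ferroxidase ceruloplasmin, chr3:19957054-20009145. The heme oxygenase gene Hmox1 spans chr8:75093621-75100589, and Blvrb, which encodes a biliverdin reductase, chr7:27447978-27466144.

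After filtering, 2043 Sham cells with 7866611 UMIs and 3773 TBI cells with 13940740 UMIs were kept, with median depths of 2764 and 2663 UMIs per cell. The cells were clustered without the 10 genes, 55 other iron and heme genes and the hemoglobin genes, and 19 classes were named from marker genes, each called X-like. Hemoglobin RNA made up 0.16% of the kept Sham UMIs and 0.0279% of the kept TBI UMIs, after barcodes with over 5% hemoglobin had been set aside. The 2 libraries shared 20 cell barcodes, of which 14 were kept in both. Levels are given as CPM, the count of a gene per 1000000 UMIs of a class, and because each transcript is counted at its 3′ end they carry no length term. Comparisons are of the same gene between classes and libraries, and where counts of different genes are set side by side they rank UMIs and not transcripts.

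Macrophage-like cells stood at the top of the map for most of the genes. In these cells 8 of the 10 were at least 2-fold higher than in all other kept cells together, namely Ftl1, Fth1, Ncoa4, Trf, Slc11a1, Slc40a1, Hmox1 and Blvrb. The same holds for 5.80% of the 11704 genes with at least 100 UMIs. Because the 10 genes were chosen with earlier results of these data known, this contrast is a description only. Macrophage-like cells held 85.0% of the Slc11a1 UMIs of all kept cells, 77.8% of those of Slc40a1, 77.5% for Hmox1, 73.6% for Trf and 63.3% for Blvrb. Of the UMIs of all genes they held 1546574 of 7866611 in Sham and 3497277 of 13940740 in TBI. They were 337 Sham and 719 TBI cells, and the 12 macrophage markers summed to 39640 CPM in Sham and 43273 CPM in TBI.

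**Figure D1:**
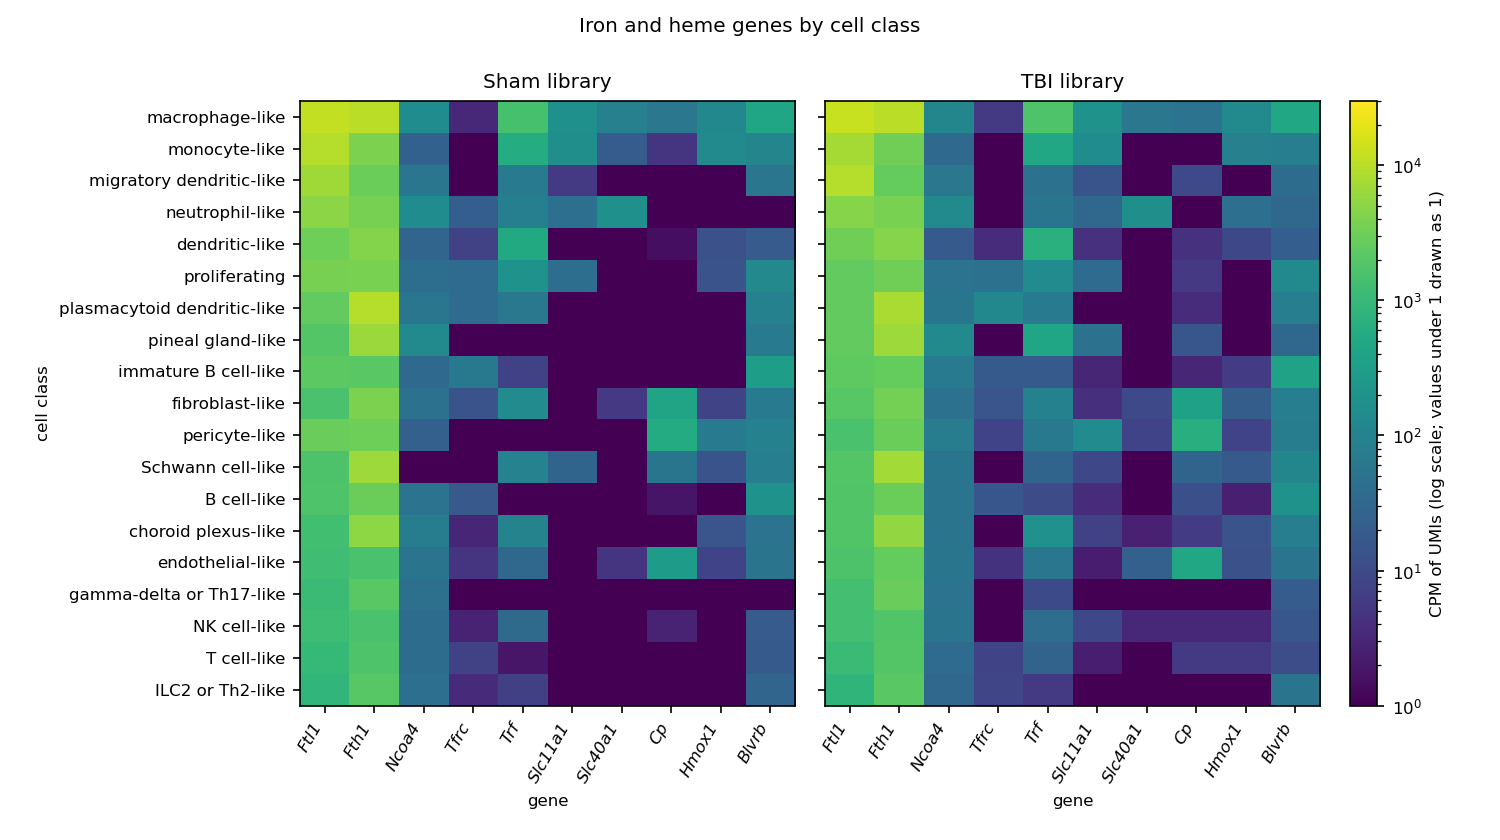
Level of each of the 10 genes (columns) in each named class (rows), in the Sham library and the TBI library, in CPM on a log colour scale, with values under 1 drawn as 1. Ftl1, Trf, Slc11a1 and Blvrb peak in macrophage-like cells in both libraries, Hmox1 peaks in monocyte-like cells in Sham (140 CPM) and in macrophage-like cells in TBI (138 CPM), and Cp is high in pericyte-like, endothelial-like and fibroblast-like cells instead.

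Among the storage genes, Ftl1 was highest in macrophage-like cells at 11677 CPM in Sham and 12602 CPM in TBI. Monocyte-like and migratory dendritic-like cells followed at 8368 and 8332 CPM over both libraries, a pair whose intervals overlapped. Neutrophil-like cells came next at 4711 CPM, and ILC2- or Th2-like cells were lowest at 867 CPM. The myeloid classes thus held the 4 highest Ftl1 levels.

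Fth1 was spread more widely. It reached 10343 CPM in Sham and 10192 CPM in TBI in macrophage-like cells, and 9496 and 8201 CPM in plasmacytoid dendritic-like cells. Schwann cell-like cells had 6758 and 7311 CPM, and the cells of the secretory epithelium named choroid plexus-like had 5147 and 5739 CPM. Macrophage-like cells held 47.0% of all Fth1 UMIs against 61.4% of those of Ftl1, so more of the heavy chain counts lay outside them.

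The balance of the 2 ferritin chains differed accordingly. Ftl1 made up 75.3% of the ferritin UMIs in migratory dendritic-like cells, 70.5% in monocyte-like cells and 54.6% in macrophage-like cells. It made up 20.3% in Schwann cell-like, 22.6% in plasmacytoid dendritic-like and 23.4% in choroid plexus-like cells, against 48.0% over all kept cells. The Ftl1 count is less certain than the others, since near-identical Ftl1 pseudogenes exist and reads common to several copies may be assigned to none. The listed pseudogene Ftl1-ps1 held 102 Sham and 163 TBI UMIs in macrophage-like cells, beside 18060 and 44071 for Ftl1.

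Ncoa4 RNA was sparse. Its level over both libraries was 144 CPM in neutrophil-like cells (20 UMIs), 138 CPM in pineal gland-like cells (13 UMIs) and 124 CPM in macrophage-like cells (627 UMIs). The intervals of these 3 classes overlapped, and dendritic-like cells were lowest at 23.4 CPM.

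Trf, the iron carrier of blood plasma, was counted in macrophage-like cells at 1515 CPM in Sham and 1722 CPM in TBI. Dendritic-like cells had 532 and 689 CPM and monocyte-like cells 583 and 487 CPM, while B cell-like cells had 4.65 CPM over both libraries. Slc11a1 stood at 177 and 190 CPM in macrophage-like cells and at 170 and 151 CPM in monocyte-like cells, and the intervals of the 2 classes overlapped. Pericyte-like cells had 18 Slc11a1 UMIs in TBI and 0 in Sham, and their macrophage markers rose from 326 to 1392 CPM. The part of these markers in that count was not tested.

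Tfrc, which brings transferrin-bound iron into the cell, followed another map and had the fewest UMIs of the 10, with 86 Sham and 151 TBI UMIs in all kept cells. Its highest level over both libraries was 90.2 CPM in plasmacytoid dendritic-like cells, from 6 UMIs in Sham and 33 in TBI. Proliferating cells followed at 43.7 CPM and immature B cell-like cells at 39.0 CPM, and the intervals of those 2 overlapped. Macrophage-like cells had 5 UMIs in Sham and 20 in TBI, or 4.96 CPM over both, below the 10.9 CPM of all kept cells. The receptor was thus low in the class where its ligand was highest.

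The exporter Slc40a1 was found in few classes. Neutrophil-like cells had 173 CPM in both Sham and TBI, from 8 and 16 UMIs, and macrophage-like cells 90.5 CPM in Sham and 60.1 CPM in TBI, from 140 and 210 UMIs. Endothelial-like cells had 3 UMIs in Sham and 31 in TBI, and B cell-like and T cell-like cells had 0 in both libraries. Cp, whose product oxidises iron as ferroportin releases it, was instead a gene of the vessel wall and stroma. Its level over both libraries was 634 CPM in pericyte-like cells, 409 CPM in endothelial-like cells and 366 CPM in fibroblast-like cells, against 52.9 CPM in macrophage-like cells. Fibroblast-like cells held 42.8% of its UMIs, endothelial-like cells 35.5% and macrophage-like cells 12.0%.

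Of the heme genes, Hmox1 stood at 121 CPM in Sham and 138 CPM in TBI in macrophage-like cells. Monocyte-like cells had 140 and 87.7 CPM from 28 and 18 UMIs, and over both libraries the intervals of the 2 classes overlapped. Blvrb, the biliverdin reductase gene, was found in a second lineage as well. It stood at 433 and 480 CPM in macrophage-like cells, at 324 and 379 CPM in immature B cell-like cells and at 198 and 202 CPM in B cell-like cells.

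The macrophage-like cells fell into 3 clusters that differed in most of the genes. The cluster led by Folr2, Cd209f and Ccl7 held 125 Sham and 331 TBI cells, the cluster led by Cx3cr1, Slamf9 and Klra2 held 105 and 250, and the cluster led by Ccl8, Cd209g and Cbr2 held 107 and 138. The last was shallow, with a median of 824 UMIs per Sham cell and 981 per TBI cell, against 4358 and 4772 in the Folr2 cluster and 7548 and 6196 in the Cx3cr1 cluster. Its hemoglobin share was also the highest of the 3, at 0.489% in Sham and 0.0659% in TBI. In this cluster 12 of 12 macrophage markers and 4 of 7 erythroid markers were at least 2-fold over other cells, at 0.34 of the median depth. The part of red cell RNA in its levels was not tested. At a lower clustering resolution no separate Folr2-led cluster was formed. A single cluster led by Ccl8, Cbr2 and Cd209f then held 232 Sham and 469 TBI cells, beside a Cx3cr1-led cluster of 106 and 251. The split between the Folr2 and Ccl8 clusters thus depends on that setting.

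The exporter gene Slc40a1 set the clusters apart. The Folr2 cluster had 204 CPM in Sham and 106 CPM in TBI, from 126 and 183 UMIs, and the Ccl8 cluster had 87.5 and 106 CPM from 10 and 20 UMIs. The Cx3cr1 cluster had 4.92 and 4.44 CPM, from 4 and 7 UMIs, although it was the deepest of the 3. In both libraries the intervals of the Cx3cr1 cluster lay below those of the other 2, so nearly all of the exporter's UMIs in macrophage-like cells came from the Folr2 and Ccl8 clusters.

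The other genes followed in smaller steps. Blvrb stood at 711 and 700 CPM in the Folr2 cluster, at 797 and 733 CPM in the Ccl8 cluster and at 171 and 208 CPM in the Cx3cr1 cluster. Trf stood at 2242 and 2345, 1681 and 1743, and 939 and 1037 CPM in the same order. Ncoa4 reached 259 and 169 CPM in the Folr2 cluster and 59.0 and 42.5 CPM in the Cx3cr1 cluster. The genes of the ferritin receptor, the iron carrier and this biliverdin reductase were thus all lower in the Cx3cr1 cluster, in both libraries.

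Slc11a1 did not share that pattern, with 212 CPM in Sham and 176 CPM in TBI in the Folr2 cluster and 164 and 212 CPM in the Cx3cr1 cluster. Ftl1 stood at 14483 and 14322 CPM in the Folr2 cluster, 20449 and 20129 CPM in the Ccl8 cluster and 8312 and 9816 CPM in the Cx3cr1 cluster. Fth1 differed less, at 9808 and 9251, 15048 and 12888, and 10089 and 10903 CPM. As a result Ftl1 made up 45.2% of the ferritin UMIs of Sham cells and 47.4% of those of TBI cells in the Cx3cr1 cluster, against 59.6% and 60.8% in the Folr2 cluster. In the Ccl8 cluster these shares were 57.6% and 61.0%. Among cells of 1000 to under 2000 UMIs, Ftl1 stood at 21144 and 19664 CPM in the Folr2 cluster. The Ccl8 cluster had 22077 and 20888 CPM there, and the Cx3cr1 cluster 6826 and 5089 CPM. The Folr2 and Ccl8 clusters were thus closer at that depth. Under 1000 UMIs the TBI cells of the Folr2 cluster had 15738 CPM, from 10 cells, against 24204 CPM in the Ccl8 cluster. The part of depth in these cluster levels was not tested.

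**Figure D2:**
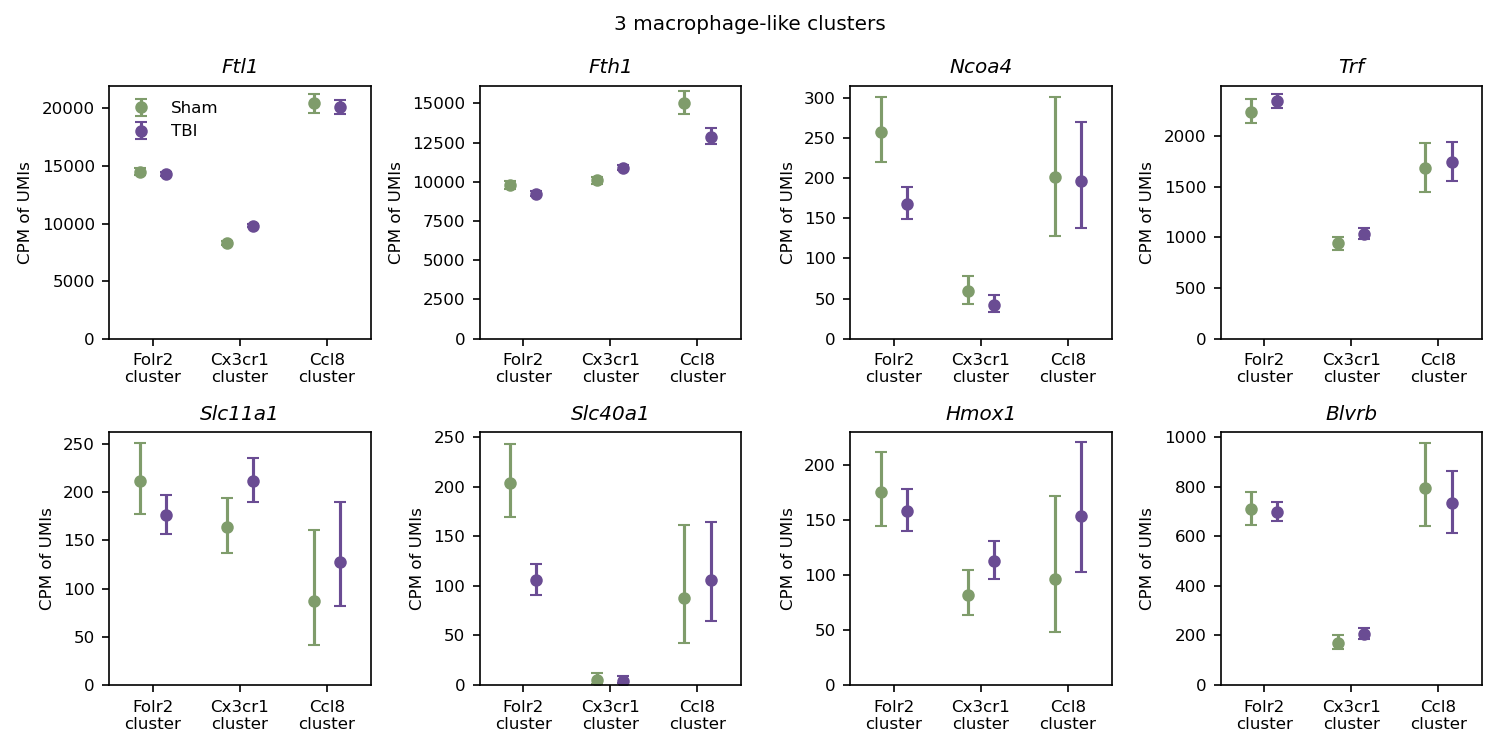
Level of 8 of the genes in the 3 macrophage-like clusters (x axis), for Sham and TBI, in CPM on linear axes that start at 0, with exact Poisson 95% intervals for counting error. Slc40a1, Ncoa4 and Blvrb sit lower in the Cx3cr1 cluster than in the Folr2 cluster in both libraries, and Slc40a1 in the Folr2 cluster goes from 204 CPM in Sham to 106 CPM in TBI.

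Between the libraries, most of the genes moved little in macrophage-like cells as a whole. Among the 10, 9 had at least 100 UMIs there, and 1 of the 9, Slc40a1, was past a 1.5-fold difference, which was lower in TBI. Of the 5530 genes with at least 100 UMIs in these cells, 1.37% were past 1.5-fold lower and 2.13% past 1.5-fold higher in TBI. The 9 genes had a median log2 ratio of TBI over Sham of 0.10, with 5 ratios above 0, and all 5530 genes had a median of 0.02.

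Ferritin stayed close between the libraries. For Ftl1 the log2 ratio was 0.11 (95% interval 0.09 to 0.14), and for Fth1 it was -0.02 (-0.05 to 0.01). Both chains together made up 2.20% of the Sham UMIs and 2.28% of the TBI UMIs of macrophage-like cells. The median over single cells went the other way, with 2.52% in Sham and 2.22% in TBI, when each cell counts alike whatever its depth. No direction for ferritin is therefore given.

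Slc40a1 had a log2 ratio of -0.59 (-0.91 to -0.27) and Ncoa4 one of -0.40 (-0.64 to -0.16), the only genes of the 9 whose intervals lay wholly below 0. For Slc40a1 the level went from 90.5 CPM in Sham to 60.1 CPM in TBI. A single Sham cell held 16 of the 140 Sham UMIs of Slc40a1, and a single TBI cell 14 of 210. Without the cell highest in Slc40a1 in each library the levels were 80.7 and 56.2 CPM, a log2 ratio of -0.52 that is not past 1.5-fold.

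The remaining genes of macrophage-like cells had small ratios in either direction. Trf had a log2 ratio of 0.19 (0.12 to 0.26) and Blvrb one of 0.15 (0.02 to 0.28). As a mean over cells the Blvrb ratio was -0.12, so no direction for Blvrb is given. Hmox1 had 0.18 (-0.06 to 0.44), Slc11a1 0.10 (-0.11 to 0.31) and Cp -0.25 (-0.62 to 0.13), all with intervals that include 0. Hmox1, the heme oxygenase gene, was thus not distinguishable between the libraries at this depth, 1 week after the injury. Hemoglobin made up 0.179% of the UMIs of Sham macrophage-like cells and 0.0223% in TBI, and its part in these ratios was not tested.

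**Figure D3:**
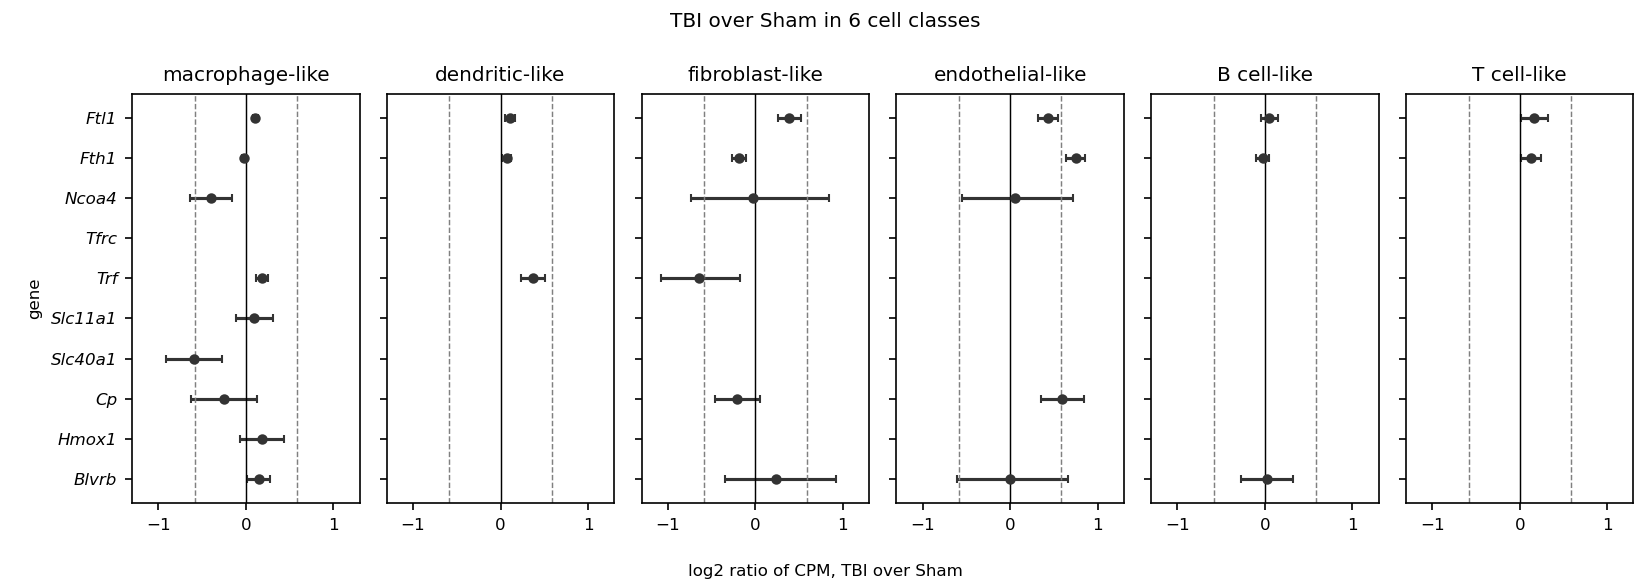
Log2 ratio of TBI over Sham for each gene with at least 100 UMIs in the 6 main classes, with exact 95% intervals for counting error and lines at 1.5-fold in each direction. In all, 4 points pass those lines: Slc40a1 in macrophage-like cells and Trf in fibroblast-like cells, both lower in TBI, and Fth1 and Cp in endothelial-like cells, both higher.

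Of the 3 macrophage-like clusters, only the Folr2 cluster had genes of the set with at least 100 UMIs that were past 1.5-fold lower in TBI. There, 3 of 9 genes were past 1.5-fold lower in TBI, against 2.99% of the 3347 genes with at least 100 UMIs in it, and none was past 1.5-fold higher, against 2.87%. Slc40a1 had a log2 ratio of -0.95 (-1.28 to -0.61), Cp one of -0.76 (-1.17 to -0.33), going from 128 to 75.7 CPM, and Ncoa4 one of -0.62 (-0.90 to -0.33), going from 259 to 169 CPM. Without the highest cell of each library the 3 ratios were -0.88, -0.69 and -0.59, all still past 1.5-fold. By summed UMIs, both iron export genes and the ferritin receptor gene were therefore lower in the TBI cells of this cluster as split here. Its split from the Ccl8 cluster depends on the clustering resolution. The ratios of Trf, Blvrb and Ftl1 in the Folr2 cluster were 0.07, -0.02 and -0.02. Over all macrophage-like cells the Cp ratio was -0.25 by summed UMIs but 0.60 as a mean over cells. No direction for Cp is therefore given for the whole class.

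In the Cx3cr1 cluster 0 of 7 genes were past 1.5-fold, beside 2.02% of its 2972 genes higher and 2.09% lower in TBI. Of its 7 ratios 6 were above 0, and the ratio of Ncoa4 was below 0. Ncoa4 counts were few here, with 16 Sham and 33 TBI UMIs in cells of 4000 to under 8000 UMIs. Cells of at least 8000 UMIs had 30 and 29. Without the highest cell of each library Ncoa4 went from 54.8 to 40.9 CPM in this cluster, a ratio of -0.43. The ratios for Ftl1, Trf and Slc11a1 were 0.24 (0.20 to 0.28), 0.14 (0.02 to 0.27) and 0.37 (0.08 to 0.67). Hmox1 went from 82.4 to 113 CPM, a ratio of 0.45 (0.04 to 0.88), but 1 TBI cell held 29 of the 178 TBI UMIs, and without the highest cell of each library the ratio was 0.26. In the Ccl8 cluster the 4 genes with at least 100 UMIs, Ftl1, Fth1, Trf and Blvrb, had ratios between -0.22 and 0.05, so none was past 1.5-fold, beside 5.14% of its 389 genes higher and 4.37% lower.

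Depth was examined next, since TBI macrophage-like cells were deeper, with a median of 4443 UMIs against 2852 in Sham. In Sham the ferritin share fell from 3.51% of UMIs in cells under 1000 UMIs to 1.96% in cells of at least 8000 UMIs. In TBI it was 3.53% in the shallowest cells, 2.15% at 4000 to 8000 UMIs and 2.28% in the deepest. Over the whole class shallow cells thus gave the larger ferritin shares in both libraries, and the share was lower in TBI in 2 of the 5 bins and higher in 3. The cluster mix also changed with depth, and 69 of 84 Sham and 70 of 86 TBI cells under 1000 UMIs were of the Ccl8 cluster. Within the Cx3cr1 cluster the share was 1.865% in Sham and 1.823% in TBI under 1000 UMIs, from 6 cells each. In its cells of at least 8000 UMIs it was 1.825% and 2.231%, so from the shallowest to the deepest cells it stayed near even in Sham and rose in TBI. Within the Folr2 cluster the share did fall, from 3.384% in Sham and 3.096% in TBI at 1000 to under 2000 UMIs. In cells of that cluster with at least 8000 UMIs it was 2.239% and 2.325%. Under 1000 UMIs the Folr2 cluster had 3.548% and 2.528%, from 9 and 10 cells. The part of the cluster mix in the fall was not tested.

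Slc40a1 and Ncoa4 kept their direction at most depths. In the 4 bins from 1000 UMIs upward, Slc40a1 stood at 242, 171, 114 and 48.6 CPM in Sham and at 106, 118, 64.5 and 29.8 CPM in TBI. In cells under 1000 UMIs it was the other way, with 67.3 CPM in Sham and 139 CPM in TBI. Ncoa4 was lower in TBI in 5 of 5 bins, for instance 252 against 170 CPM in the shallowest cells and 117 against 86.5 CPM in the deepest. Within the Folr2 cluster Slc40a1 was lower in TBI in each of the 4 bins from 1000 UMIs upward, going from 462 to 148, 238 to 166, 217 to 111 and 142 to 67.5 CPM. Under 1000 UMIs it went from 153 to 387 CPM, from 1 and 3 UMIs.

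**Figure D4:**
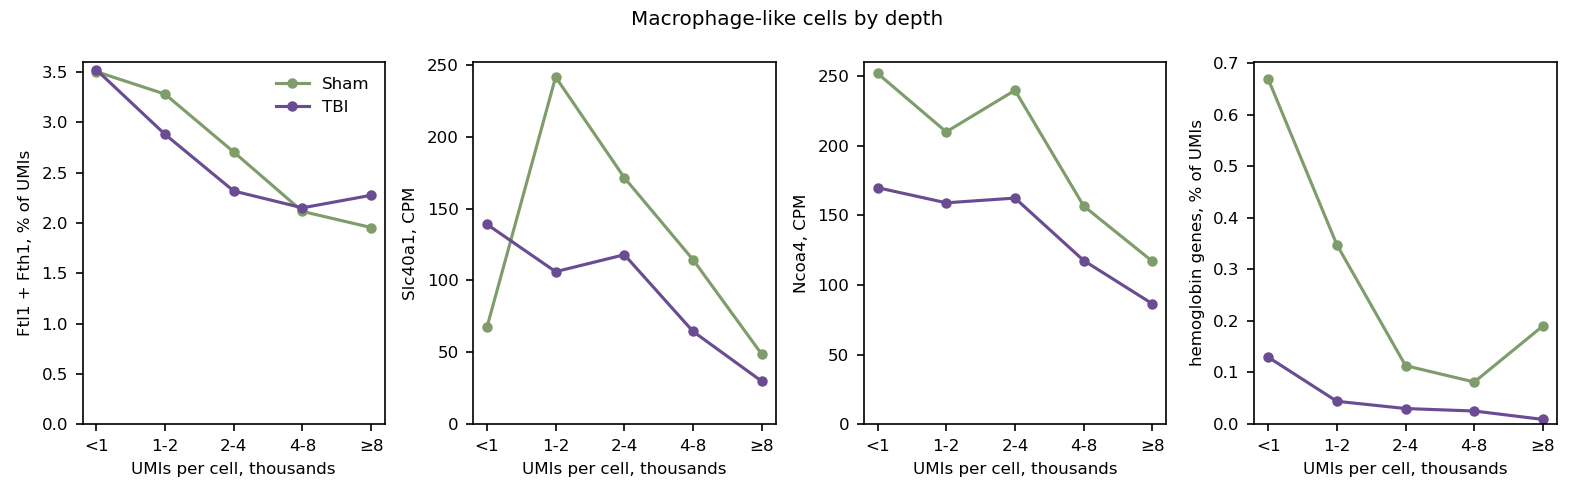
Ferritin share of UMIs (%), levels of Slc40a1 and Ncoa4 (CPM) and hemoglobin share of UMIs (%) in macrophage-like cells, by bins of UMIs per cell (x axis, in units of 1000 UMIs), for Sham and TBI. The ferritin share falls from 3.51% to 1.96% across the Sham bins, Slc40a1 lies lower in TBI in 4 of 5 bins and Ncoa4 in 5 of 5.

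Shares of cells with a count were compared after each cell had been thinned to 1000 UMIs, which kept 253 of 337 Sham and 633 of 719 TBI macrophage-like cells and left out the shallower ones. Slc40a1 was then found in 9.49% of Sham cells (6.17 to 13.8) and in 5.53% of TBI cells (3.88 to 7.61), against 16.3% and 13.6% without thinning. In the Folr2 cluster the thinned shares of Slc40a1 were 18.1% and 9.66%, and in the Cx3cr1 cluster 0 of 99 and 0 of 244 cells had it. Hmox1 was found in 7.51% of Sham cells (4.58 to 11.48) and 12.0% of TBI cells (9.58 to 14.8) after thinning, and in 30.3% and 37.3% before it. The share of cells with Slc40a1 lay lower in TBI and that with Hmox1 higher, but for each gene the intervals of the 2 libraries overlapped. No interval was formed for the difference of the shares.

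T cell-like cells, a class that should hold little Slc40a1, Hmox1 or Trf, were used for the level of free RNA at median depths of 3289 UMIs in Sham and 3220 in TBI. After thinning, Slc40a1 and Hmox1 were found in 0 of 120 Sham and 0 of 202 TBI T cell-like cells, which allows shares of up to 2.5% and 1.49%. Trf and Blvrb were each found in 0 of 120 and in 3 of 202. In macrophage-like cells the thinned shares were 70.8% and 75.04% for Trf and 35.2% and 38.2% for Blvrb, well above that level.

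Endothelial-like cells, 309 in Sham and 579 in TBI, showed higher ferritin and ceruloplasmin RNA in the injured library. Of the 5 genes with at least 100 UMIs there, 2 were past 1.5-fold higher in TBI, against 3.40% of 3704 genes higher and 1.67% lower. Fth1 went from 1533 to 2575 CPM, a log2 ratio of 0.75 (0.64 to 0.85), and Cp from 303 to 458 CPM, a ratio of 0.59 (0.36 to 0.84). Ftl1 went from 1263 to 1705 CPM, a ratio of 0.43 (0.32 to 0.55), and Ncoa4 and Blvrb were even at 0.06 and 0.00. Without the highest cell of each library the Fth1 and Cp ratios were 0.77 and 0.61.

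Fth1 was higher in TBI in each of the 4 endothelial-like clusters. It went from 1355 to 1838 CPM in the cluster led by Gpihbp1, from 1548 to 3079 CPM in the one led by Vwf, from 1329 to 1873 CPM in the one led by Sema3g and from 4305 to 6413 CPM in the one led by Slc38a5. Its log2 ratios there were 0.44, 0.99, 0.49 and 0.57, of which the second is past 1.5-fold. In that Vwf cluster 2 of 3 genes, Ftl1 and Fth1, were past 1.5-fold higher, but so were 20.3% of its 725 genes. Fth1 was also higher in TBI in 4 of 4 depth bins, at 1547 against 1179 CPM in the shallowest and 3270 against 2022 CPM at 4000 to 8000 UMIs.

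Cp differed more between the clusters than between the libraries. It stood at 99.7 and 124 CPM in the Gpihbp1 cluster, 853 and 1017 CPM in the Vwf cluster, 340 and 440 CPM in the Sema3g cluster and 592 and 650 CPM in the Slc38a5 cluster, with no ratio past 1.5-fold. The Vwf cluster, where Cp was highest, held 54 Sham and 143 TBI cells, and the Gpihbp1 cluster, where it was lowest, 193 and 306. When the TBI clusters were weighted by their Sham share of UMIs, the Cp ratio was 0.28 and the Fth1 ratio 0.59. The part of the cluster mix in these differences was not tested.

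The endothelial-like cells also held some Slc40a1 UMIs, and more came from the smallest cluster than from any other. The Slc38a5 cluster, which is also marked by Cldn5, a tight junction gene of the blood-brain barrier, and Slco1a4, had 2 of the 3 Sham and 17 of the 31 TBI Slc40a1 UMIs. It held 13 Sham and 38 TBI cells, and its Slc40a1 level was 65.7 CPM in Sham (7.96 to 237) and 154 CPM in TBI. The same cluster had the highest Fth1 level of the 4 in both libraries. Its macrophage markers were at 0 in Sham and 154 CPM in TBI. In TBI macrophage-like cells the same markers stood at 43273 CPM, and Slc40a1 was at 69.4 CPM in macrophage-like cells over both libraries. The part of these markers in the Slc40a1 count of the cluster was not tested.

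Macrophage marker RNA was higher in TBI in several other classes, and its size was measured beside these values. The 12 macrophage markers summed to 50.3 CPM in Sham and 372 CPM in TBI endothelial-like cells, to 51.4 and 488 CPM in T cell-like cells and to 31.1 and 407 CPM in B cell-like cells. At the ratio of gene to markers seen in macrophage-like cells, that rise corresponds to 74.6 of the 1043 CPM by which Fth1 was higher in endothelial-like cells, to 93.6 of 442 CPM for Ftl1 and to 0.355 of 155 CPM for Cp. In T cell-like cells it corresponds to 127 CPM beside a difference of 123 CPM for Ftl1, and to 102 of 170 CPM for Fth1. Whether the ratio holds for marker RNA found in other classes was not tested, nor was the part of this RNA in the differences.

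Fibroblast-like cells, 120 in Sham and 758 in TBI, gave mixed values. One of 6 genes was past 1.5-fold, Trf, lower in TBI, against 5.08% of 4961 genes lower and 5.64% higher. Trf went from 144 to 92.3 CPM, a log2 ratio of -0.65 (-1.08 to -0.17), but 13 of its 52 Sham UMIs came from 1 cell, and without the highest cell of each library the ratio was -0.39. Ftl1 went from 1547 to 2029 CPM, a ratio of 0.39 (0.26 to 0.52), beside a rise of the macrophage markers from 191 to 969 CPM that corresponds to 226 of the 482 CPM.

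Fth1 in fibroblast-like cells rested on 1 cell. Its ratio was -0.19 (-0.27 to -0.11), and a single Sham cell held 335 of the 1430 Sham UMIs. Without the highest cell of each library the ratio was 0.11, so its direction is not given. Cp went from 414 to 358 CPM, a ratio of -0.21 (-0.46 to 0.05), and Blvrb and Ncoa4 had ratios of 0.23 and -0.03 with intervals that include 0.

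The 2 fibroblast-like clusters differed in the direction of Cp and shared that of Ftl1. The cluster led by Ptgds, Dcn and Igfbp6 held 66 Sham and 454 TBI cells, and 1 of its 5 genes, Cp, was past 1.5-fold lower in TBI, against 6.35% of its 3542 genes. Cp went from 453 to 300.2 CPM there, a ratio of -0.60 (-0.88 to -0.29), which became -0.40 without the highest cell of each library. Ftl1 went from 1965 to 2503 CPM in the same cluster, a ratio of 0.35 (0.22 to 0.48), beside macrophage markers that went from 56.1 to 1224 CPM. The cluster led by Snhg11, Gm17167 and Foxp2 held 54 and 304 cells. It was named from 9 of 10 fibroblast markers that were at least 2-fold over other cells, although none of them was among its 10 leading genes.

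In that Snhg11 cluster all 3 genes with at least 100 UMIs were past 1.5-fold higher in TBI, beside 14.6% of its 1072 genes. Ftl1 went from 369 to 690.4 CPM (ratio 0.89, 0.40 to 1.45), Fth1 from 685 to 1096 CPM (0.67, 0.31 to 1.07) and Cp from 306 to 522 CPM (0.75, 0.22 to 1.37). The Sham values came from 35, 65 and 29 UMIs. The macrophage markers went from 569 to 249 CPM there, and their part in these values was not tested. Cp thus stood higher in TBI in one fibroblast-like cluster and lower in the other, a difference that was not tested.

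**Figure D5:**
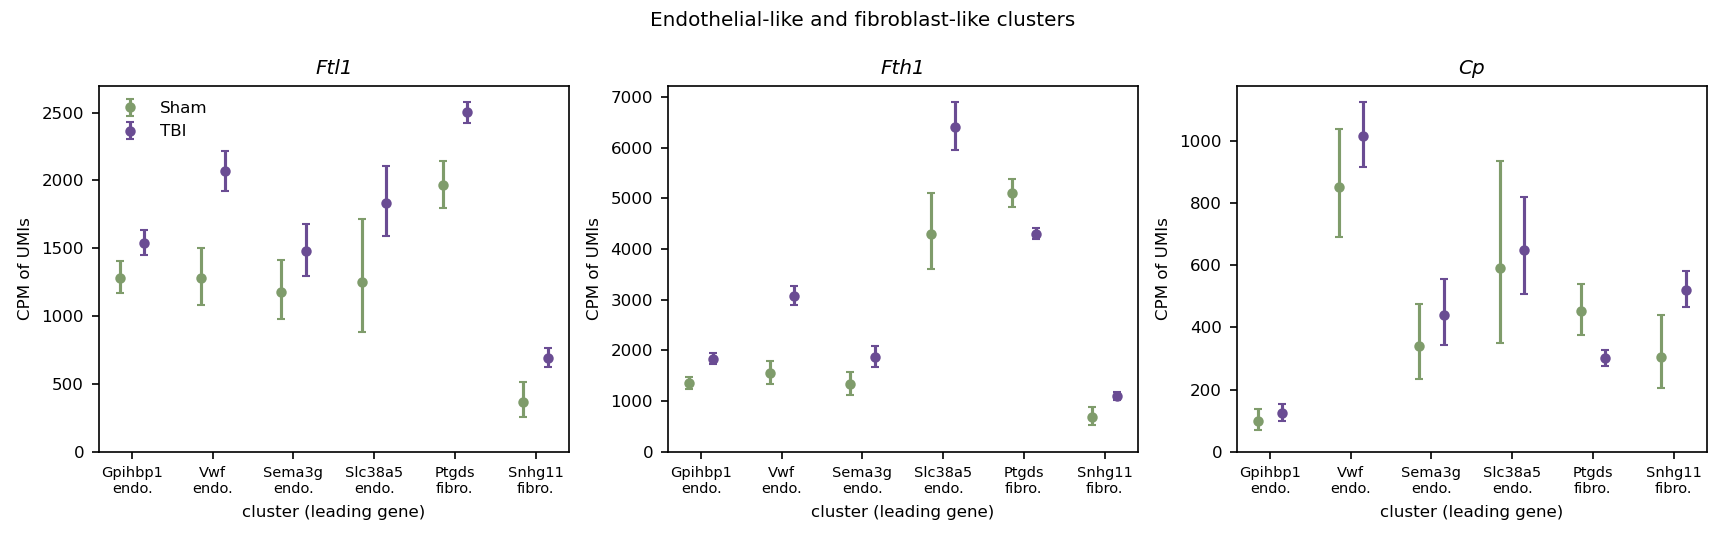
Levels of Ftl1, Fth1 and Cp in the 4 endothelial-like and 2 fibroblast-like clusters, for Sham and TBI, in CPM on linear axes that start at 0, with exact Poisson 95% intervals for counting error. Fth1 is higher in TBI in each of the 4 endothelial-like clusters, and Cp goes from 453 to 300.2 CPM in the Ptgds cluster and from 306 to 522 CPM in the Snhg11 cluster.

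In the lymphoid and dendritic classes no gene was past 1.5-fold. Dendritic-like cells had 3 genes with at least 100 UMIs, and there 2.10% of 3336 genes were past 1.5-fold higher and 1.11% lower. Trf had the largest ratio of the 3, 0.37 (0.24 to 0.51), from 532 to 689 CPM, with Ftl1 at 0.11 and Fth1 at 0.07. In B cell-like cells, with backgrounds of 2.30% higher and 2.51% lower among 2909 genes, Ftl1, Fth1 and Blvrb had ratios of 0.05, -0.03 and 0.03. In T cell-like cells, with 2.76% higher and 2.81% lower among 2063 genes, Ftl1 and Fth1 had ratios of 0.17 (0.02 to 0.32) and 0.13 (0.02 to 0.25), beside the macrophage marker values given above.

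The rest of the pathway was read from a list of 55 other iron and heme genes. In macrophage-like cells 21 of the 55 had at least 100 UMIs, 12 of the 21 had ratios above 0, none was past 1.5-fold, and their median log2 ratio was 0.08. The 5 with the most UMIs per class total were Pcbp2, an iron chaperone, at 537 CPM in Sham and 567 CPM in TBI, the constitutive heme oxygenase gene Hmox2 at 224 and 259 CPM, Nfe2l2, a regulator of Hmox1 and ferritin transcription, at 190.1 and 207 CPM, the iron-sulfur cluster scaffold gene Iscu at 173 and 169 CPM, and Lrp1, a receptor for heme-bound hemopexin, at 166 and 172 CPM. Cd163, the receptor that takes up hemoglobin bound to haptoglobin, stood at 155 and 135 CPM, with an interval of the ratio from -0.43 to 0.03. The 10 genes of the list for iron uptake and reduction all had fewer than 100 UMIs in these cells and were not compared. Of the 6 genes for sensing and chaperones 4 reached that number, and none of the 4 was past 1.5-fold.

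Among genes of that list with at least 100 UMIs in another main class, 5 gene and class pairs passed 1.5-fold, all higher in TBI. Hmox2 went from 60.01 to 97.1 CPM in endothelial-like cells, a log2 ratio of 0.68 (0.16 to 1.26). It was 1 of 14 genes, beside 3.40% of all 3704 genes higher there. Iscu went from 80.8 to 126 CPM in T cell-like cells, a ratio of 0.63 (0.12 to 1.18). It was 1 of 5 genes, beside 2.76% of all 2063 genes higher there. In fibroblast-like cells 3 of 24 did so, from 9 or fewer Sham UMIs each, beside 5.64% of all 4961 genes. Keap1, the cytosolic partner of Nfe2l2, had a ratio of 1.39 (0.50 to 2.62). Alas1, the first enzyme of heme synthesis, had 1.03 (0.08 to 2.36), and the iron regulatory protein gene Ireb2 0.87 (-0.04 to 2.11). Alas2, the erythroid enzyme of heme synthesis, reached 100 UMIs in no main class but did so over all kept cells, where it went from 230 UMIs and 29.2 CPM in Sham to 77 UMIs and 5.52 CPM in TBI, a ratio of -2.40 (-2.80 to -2.03). The hemoglobin share of the kept cells was lower in TBI as well, and macrophage-like cells had 51 and 14 Alas2 UMIs.

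For each gene, the genes with the most similar level across the 19 classes were found by Pearson's r of log2(CPM + 10), as a description over points that share libraries and depth. Cp had the closest companions, Cxcl12, Rhoj and Ppic, at r of 0.96, 0.95 and 0.95. Slc40a1 was nearest to C5ar1, Fos and Cd14 (0.91, 0.88 and 0.83). Its r rests on few classes, since macrophage-like cells held 350 of its UMIs and many classes, such as B cell-like and T cell-like cells, held 0. Hmox1 was nearest to Pla2g7, Clec4n and Csf1r (0.90, 0.88 and 0.86). Slc11a1 was nearest to F13a1, Csf1r and Clec4n (0.83, 0.83 and 0.80), and Trf to Hpgd, P2ry6 and Clec4a3 (0.86, 0.85 and 0.85). Csf1r, Clec4n and Cd14 among these are known genes of macrophages and monocytes, and Cxcl12 is known from stromal and endothelial cells.

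Tfrc was nearest to Cox6a2, Mzb1 and Fcrla (0.89, 0.84 and 0.81), genes of plasmacytoid dendritic and B lineage cells, on 237 UMIs in all. Ftl1 was nearest to Gm21188, Gm36161 and Ptafr (0.89, 0.88 and 0.88), Fth1 to B4galt6, Myo5a and Atp6v0b (0.78, 0.77 and 0.73), Blvrb to Pkig, Lgmn and Snx30 (0.81, 0.74 and 0.73), and Ncoa4 to Atp6v0c, Zfp787 and Comtd1 (0.69, 0.67 and 0.66). The 2 ferritin chains shared none of these companions.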

How the data were processed

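Single-cell suspensions were sorted as live singlets by the authors and made into 10x 3′ libraries, and the deposited matrices hold UMI counts per gene and barcode, not normalized. The alignment is credited to Cell Ranger 2.1.1 and mm10 in the submitters' processing notes, while the matrix header names software 3.1.0. Here, barcodes with 150 to 5000 genes, at most 20% mitochondrial and at most 5% hemoglobin UMIs were kept, from 2699 Sham and 4349 TBI barcodes, with 502 to 29604 and 501 to 28432 UMIs per kept cell. Cells were clustered with scanpy 1.11.5 on 2000 variable genes, 20 components and 20 neighbours (Leiden, resolution 0.8), leaving out iron, heme and hemoglobin genes. A cluster was named from at least 3 markers, and at least 50% of a list, that were 2-fold over other cells. A very shallow cluster with none of these markers among its 10 leading genes was left unnamed. This held for a cluster of 77 Sham and 130 TBI cells at 0.32 of the median depth, with 4 of 7 erythroid markers. Doublets were predicted from simulated pairs (33 Sham, 114 TBI cells) and kept, with an alternative without them.

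UMIs were summed per class and library, cells not being replicates, and log2 ratios were formed with 0.5 added and exact binomial 95% intervals (scipy 1.17.1), for genes that reached 100 UMIs over both libraries. With 1 library per group, a gene was called past the fold at 1.5-fold. A level of 0 allows up to 0.381 CPM in Sham and 0.215 CPM in TBI over all kept cells. The named genes were the 10 genes, the 3 genes most like each of them over the classes among genes with at least 500 UMIs, and, of the other iron and heme genes, the 5 most abundant in macrophage-like cells and any past 1.5-fold there. Cd163, Keap1, Alas1, Alas2, Ireb2, the values of Hmox2 and Iscu in other classes, Ftl1-ps1 and the genes that lead clusters were named in addition, after their values were seen. The 10 genes, the lists and the markers were chosen with earlier results of these data known. Gene positions and UTRs came from GENCODE for GRCm38. The ratio script was tested on simulated counts.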

Additional observations from a re-analysis of the deposited data

Results flagged for a closer look

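Ferritin and biliverdin reductase RNA was also high in barcodes that the comparisons leave out. These are the 289 Sham and 174 TBI barcodes with over 5% hemoglobin, in which hemoglobin made up 63.0% and 52.4% of all UMIs and the erythroid heme synthesis gene Alas2 had 12942 and 6598 UMIs. They held 5412 Sham and 3327 TBI UMIs of Ftl1, or 16617 and 13869 CPM after hemoglobin was left out, against 4169 and 4912 CPM in the kept cells counted the same way. Fth1 had 3018 and 2229 UMIs there, or 9267 and 9292 CPM. Blvrb had 993 and 528 UMIs, or 3049 and 2201 CPM against 153 and 180 CPM in the kept cells. Each stood above the 3 counts that a level of 0 allows, which is what drew attention to it. Ncoa4 was high as well, at 1695 and 1030 CPM, while Slc40a1 had 1 and 6 UMIs and Hmox1 5 and 4.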

How the results depend on the processing

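The 28 log2 ratios of the genes in the 6 main classes were recomputed under 421 alternatives in all, and 394 moved by less than their counting interval, 27 by more. Their sign was kept in 385 and changed in 36. No paired analysis was possible because each group has 1 library and no result comes from a test between groups. After seeing the data, 3 alternatives were added, namely clusters reweighted to their Sham share, the Ccl8 cluster left out, and the highest cell of each gene left out. The cause of the changes below was not tested. In macrophage-like cells, the number of genes past 1.5-fold lower in TBI went from 1 to 0 with a mean over cells, with cells of at least 2000 UMIs, without the hemoglobin limit, without predicted doublets, at 2-fold, and without the highest cell. The number higher went from 0 to 1 with a mean over cells, with at least 20 UMIs and with no minimum. With a mean over cells that gene was Cp, at a log2 ratio of 0.60. In endothelial-like cells, the number higher went from 2 to 1 with median-ratio scaling, with a mean over cells and with clusters reweighted, to 0 at 2-fold, to 4 with at least 20 UMIs and to 5 with no minimum. In fibroblast-like cells, the number lower went from 1 to 0 with depth bins reweighted, at 2-fold and without the highest cell, and the number higher from 0 to 1 with at least 20 UMIs and 2 with no minimum. In dendritic-like cells, with no minimum 3 were higher and 2 lower, and 1 was lower with at least 20 UMIs. In B cell-like cells 4 were higher with no minimum. In T cell-like cells 1 was higher and 1 lower with at least 20 UMIs, and 4 and 2 with no minimum. The ferritin share of macrophage-like UMIs, 0.077 percentage points higher in TBI, was reversed to -0.271 as a mean over cells, and was 0.151 with cells of at least 2000 UMIs, 0.124 with depth bins reweighted and 0.127 without the Ccl8 cluster.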
